A study of Mus musculus with 2 samples.

Results

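Expression of the Xlr3, Xlr4 and Xlr5 genes was compared between mouse E14 embryonic stem cells (ESCs) and E14-Sox2 TA/WT cells by RNA-seq. The 9 genes are Xlr3a, Xlr3b, Xlr3c, Xlr4a, Xlr4b, Xlr4c, Xlr5a, Xlr5b and Xlr5c, and each has 1 row among the 24532 genes of the deposited table. They were chosen by their low values in E14-Sox2 TA/WT cells in this same comparison, so every ratio below is a description of that choice and no test of it. E14 is an established ESC line from a male embryo, wild type for Sox2 and cultured with serum and LIF (leukemia inhibitory factor). E14-Sox2 TA/WT cells, called mutant cells below, are E14 cells with the T258A change in 1 allele of Sox2. The change was made by CRISPR/Cas9 with a single-stranded DNA donor, and it removes an O-GlcNAc site from this pluripotency transcription factor. Clones were selected and kept in serum and LIF with 2i, the Mek inhibitor PD0325901 and the Gsk3 inhibitor CHIR99021, and were used after passages without 2i. The number of clones behind the mutant cells is not given in the sources used here. Each genotype had 1 library, and genotype, clone and culture history cannot be told apart.

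The Xlr (X-linked lymphocyte-regulated) genes are a multicopy family of the mouse X chromosome. Their proteins are related to Sycp3, a structural protein of the chromosome axis in meiosis, and members of the family are known from lymphocytes, germ cells and brain. Xlr3b, Xlr4b and Xlr4c are known for imprinted expression in the brain, where the maternal copy is the more active one.

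The libraries held 60263536 counted reads in E14 and 44609228 in mutant cells, with reads at 17645 and 16764 genes. All 8 ESC markers examined passed the filter used below in both genotypes, and 1 of them, Nanog, was more than 2-fold lower in mutant cells (527 and 251 TPM, log2 ratio -1.07). Their summed level was 12109 TPM (transcript abundance scaled for length and library) in E14 and 9073 TPM in mutant cells. The lymphocyte markers summed to 33.3 and 16.9 TPM over 9 genes, most of it Lck (19.1 and 10.4 TPM). Of the others, Cd79a (5.60 and 3.31 TPM), Cd79b (4.28 and 1.41 TPM) and Cd3e (3.63 and 1.63 TPM) had reads in both libraries, and Ptprc and Cd3g were at 0 in both. The part of lymphocyte genes in the Xlr result was not tested. The 8 male germ cell markers summed to 33.9 and 26.9 TPM, nearly all of it Ddx4 (32.6 and 26.5 TPM), with Prm1, Prm2, Acrv1 and Pgk2 at 0 in both. The 6 brain markers summed to 5.12 and 4.07 TPM with Aqp4 at 0. Of the 6 fibroblast markers, Postn, Dcn and Lum were at 0, and Thy1, at 40.1 and 11.4 TPM, made up most of a sum of 43.0 and 15.4 TPM. Col1a1 had 497 and 370 reads (log2 ratio 0.15) and Col1a2 had 43 and 109 reads (1.93).

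The 9 genes lie together on chromosome X (chrX:73074343-73293863, GRCm38), a stretch of 219.5 kb. By position they form 3 units, each with 1 copy of each subfamily. Unit a holds Xlr4a (73074343 to 73082527), Xlr3a (73086293 to 73097095) and Xlr5a (73107621 to 73118717) on the minus strand. Unit b holds Xlr5b (73147784 to 73158886), Xlr3b (73192150 to 73202930) and Xlr4b (73214321 to 73222453) on the plus strand. Unit c holds Xlr4c (73234076 to 73243130), Xlr3c (73254538 to 73265576) and Xlr5c (73283361 to 73293863) on the minus strand. In the GENCODE annotation each gene has a transcript of 9 exons, from 1162 bases in Xlr4a to 1656 bases in Xlr5c.

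Copies within a subfamily are nearly identical, and subfamilies are well apart. Identity over the aligned coding bases, with gaps left out, ran from 98.2% to 99.5% within subfamilies and from 59.7% to 66.6% between them. Only part of each transcript can therefore tell a copy from its relatives. The share of 100-base stretches found in no other gene was lowest in Xlr5b (19.8%) and highest in Xlr4c (62.2%), and stretches shared with another subfamily were at most 6.59% of a transcript. Between 1.01% (Xlr3c) and 21.1% (Xlr4b) of the stretches also occur in pseudogene copies outside the 9 genes, such as Xlr3d-ps, Xlr4d-ps and Xlr5d-ps. How reads that match several copies were counted is not given in the sources used here, so the value of a single copy is uncertain and the sum over a subfamily is the firmer quantity, although reads shared with the pseudogenes touch it too. The following stretches of Xlr3 coding exons (GENCODE transcripts, GRCm38) show what separates the copies, with capitals at the bases that are not the same in all 3.
Xlr3a coding, chrX:73089424-73089498, minus strand: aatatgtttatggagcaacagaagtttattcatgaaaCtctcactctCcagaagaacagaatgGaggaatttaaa
Xlr3b coding, chrX:73199746-73199820, plus strand: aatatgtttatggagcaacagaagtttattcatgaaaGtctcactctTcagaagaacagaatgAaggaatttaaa
Xlr3c coding, chrX:73257660-73257734, minus strand: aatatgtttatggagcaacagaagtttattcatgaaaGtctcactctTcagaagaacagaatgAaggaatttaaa
Over these 75 bases Xlr3b and Xlr3c were the same, and 3 bases set Xlr3a apart from both.

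The upstream regions repeat this picture, and they are shown because each copy has its own start. Stretches of 100 bases from the RefSeq promoter windows (GRCm38.p6, 250 bases before to 50 bases after the annotated start) were aligned within each subfamily. Upstream here means before the start used for the window, which is not always the end of the gene span given above. The Xlr5a and Xlr5b stretches lie inside those gene spans, and the Xlr3c stretch lies partly inside its own. Capitals in the Xlr3 and Xlr4 sequences mark bases that differ among the copies.
Xlr3a upstream, chrX:73097163-73097262, minus strand: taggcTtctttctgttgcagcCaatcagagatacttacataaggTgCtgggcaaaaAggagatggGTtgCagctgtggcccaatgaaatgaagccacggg
Xlr3b upstream, chrX:73191951-73192050, plus strand: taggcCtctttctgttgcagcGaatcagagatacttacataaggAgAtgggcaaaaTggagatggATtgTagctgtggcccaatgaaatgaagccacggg
Xlr3c upstream, chrX:73265539-73265638, minus strand: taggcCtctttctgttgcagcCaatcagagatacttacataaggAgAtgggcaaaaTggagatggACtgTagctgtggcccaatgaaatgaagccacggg
Xlr4a upstream, chrX:73082538-73082637, minus strand: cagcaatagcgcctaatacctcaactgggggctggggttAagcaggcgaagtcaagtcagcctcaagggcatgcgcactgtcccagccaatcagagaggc
Xlr4b upstream, chrX:73214210-73214309, plus strand: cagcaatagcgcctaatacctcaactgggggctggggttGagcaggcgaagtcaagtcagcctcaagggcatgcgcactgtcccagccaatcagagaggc
Xlr5b upstream, chrX:73148696-73148795, plus strand: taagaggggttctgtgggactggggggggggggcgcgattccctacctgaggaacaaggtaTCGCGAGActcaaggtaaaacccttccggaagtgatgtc
The Xlr3 stretches differed at 8 positions and the Xlr4 stretches at 1. The Xlr4c stretch (chrX:73243131-73243230, minus strand) had the same letters as that of Xlr4b, and the Xlr5a stretch (chrX:73117703-73117802, minus strand) the same letters as that of Xlr5b, in which capitals mark the motif TCGCGAGA.

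The motifs given here were searched on both strands of the 300-base windows after the sequences had been seen, and a match is a description, not a site. TCGCGAGA was in the windows of Xlr5a and Xlr5b and in 0.995% of all 32851 promoter windows. GCATGCGC was in all 3 Xlr4 windows, in none of the Xlr3 and Xlr5 windows and in 2.71% of all windows. CCAAT was in 8 of the 9 windows, Xlr5c being the exception, and in 37.4% of all. None of the 9 windows held CACGTG, which was in 7.15% of all windows. The same was true of TCCCGC, found in 19.98% of all windows, and of CATTGT, found in 12.6%. The windows of Xlr5a and Xlr5b held 16 CG dinucleotides each and those of the Xlr3 and Xlr4 genes 5 to 8, beside a median of 7 over all windows and quartiles of 3 and 20. The window of Xlr5c held 1, but its annotated start lies at the coding start of a short RefSeq model, so it does not show the same region as the windows of Xlr5a and Xlr5b.

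In E14 the Xlr3 genes were the most expressed of the family. Xlr3a had 2892 reads and a level of 55.7 TPM (95% counting interval 53.7 to 57.8), which placed it at percentile 82.8 of the genes with reads. Xlr3b had 1469 reads (28.8 TPM) and Xlr3c 1243 reads (24.9 TPM), so that all 3 were above the middle of the expressed genes. In mutant cells Xlr3a had 32 reads (0.910 TPM), Xlr3b had 40 reads (1.17 TPM) and Xlr3c had 33 reads (0.969 TPM). The highest Xlr3 level in mutant cells was thus below the lowest in E14, and the order of the copies was not kept. Counting intervals separated Xlr3a from Xlr3b and Xlr3b from Xlr3c in E14, whereas in mutant cells the intervals of all neighbours in the order overlapped. In bulk RNA, fewer cells with Xlr transcripts and less RNA per cell cannot be told apart.

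On the log2 scale, the ratio of TPM in mutant cells over E14 was -5.94 (95% counting interval -6.49 to -5.44) for Xlr3a, a 61.2-fold lower level. Xlr3b had a log2 ratio of -4.63 (-5.12 to -4.17) and Xlr3c one of -4.68 (-5.23 to -4.19). The interval of Xlr3a did not overlap those of Xlr3b and Xlr3c, which overlapped each other almost fully. Summed over the subfamily, 5604 reads in E14 became 105 in mutant cells, or 93.0 and 2.35 CPM (reads divided by the library total and scaled). On the TPM scale, to which all ratios of summed reads here were brought, the log2 ratio was -5.16 (-5.45 to -4.88) and 2.80% of the E14 level was left. The CPM values themselves gave -5.30. All intervals given here describe counting error only. Copies made by PCR do not count as separate molecules, and without a further library the spread between cultures is unknown.

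**Figure D1:**
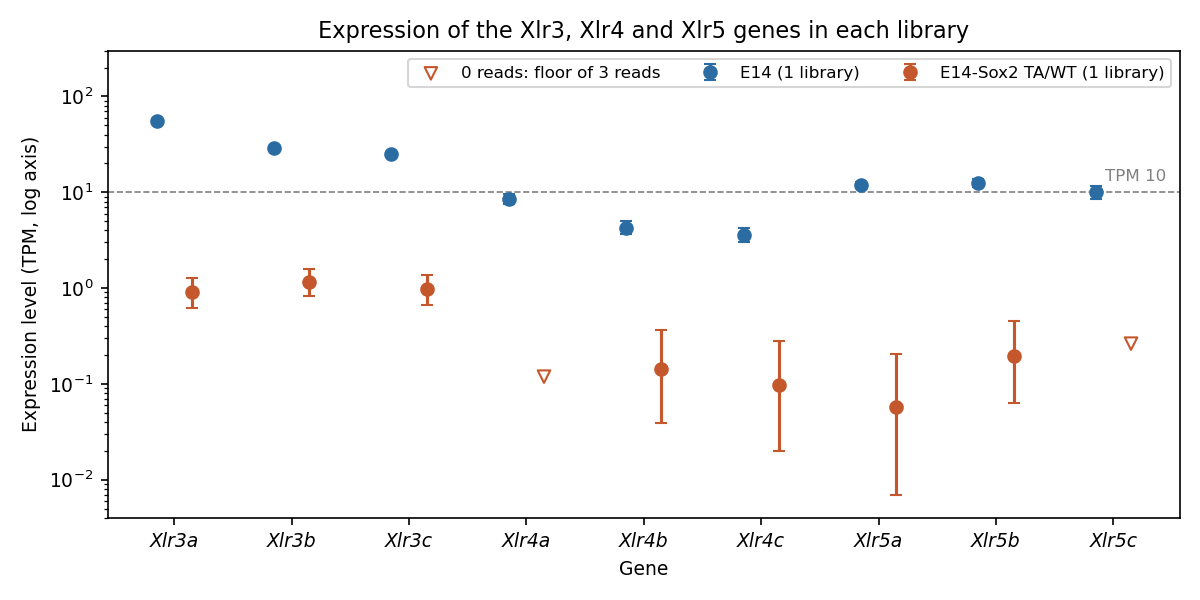
Expression level in TPM (log axis) of each Xlr gene in E14 (blue) and in mutant cells (orange), 1 library each, with 95% counting intervals as bars. Open triangles stand at the floor of 3 reads for the copies with 0 reads, Xlr4a and Xlr5c. Every E14 point lies above every mutant point, and the dashed line at 10 TPM, the filter, is passed in E14 alone.

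The Xlr4 genes were the least expressed. In E14, Xlr4a had 320 reads (8.50 TPM), Xlr4b had 166 reads (4.27 TPM) and Xlr4c had 139 reads (3.59 TPM), between percentiles 37.4 and 48.8 of the genes with reads. In mutant cells Xlr4a had 0 reads, Xlr4b had 4 and Xlr4c had 3. Xlr4a, the highest copy in E14, was therefore the one without a read. Set against a floor of 3 reads per library, it was at least 71.5-fold lower. The log2 ratio was -4.90 (-6.79 to -3.51) for Xlr4b and -5.21 (-7.51 to -3.64) for Xlr4c, and at so few reads these copies cannot be ranked. The subfamily went from 625 reads to 7, a log2 ratio of -5.90 (-7.22 to -4.85), with 1.67% of the E14 level left.

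The Xlr5 genes had the lowest ratio of the summed subfamilies. In E14, Xlr5a had 617 reads (11.9 TPM), Xlr5b had 448 reads (12.5 TPM) and Xlr5c had 170 reads (9.99 TPM). In mutant cells they had 2, 5 and 0 reads. The levels of the 3 copies in E14 overlapped in their counting intervals although the reads differed, because the deposited values divide by length. A unit of FPKM (fragments scaled per kilobase and to the library) stood for 101 reads at Xlr5a, 69.5 at Xlr5b and 33.1 at Xlr5c, whose RefSeq model is short. The TPM of Xlr5c therefore rests on fewer reads per unit and is not safely set beside those of the other copies. Xlr5a had a log2 ratio of -7.69 (-10.74 to -5.83), the lowest among the copies with reads in both libraries, and Xlr5b one of -6.01 (-7.64 to -4.77). Xlr5c was at least 38.0-fold lower against the floor of 3 reads. In the sum, 1235 reads became 7, a log2 ratio of -6.89 (-8.20 to -5.84), which left 0.846% of the E14 level.

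Over all 9 genes, 7464 reads in E14 stood against 119 in mutant cells, or 124 and 2.67 CPM. The log2 ratio was -5.39 (-5.67 to -5.13) on the TPM scale and -5.54 by CPM. The interval of the Xlr5 sum did not overlap that of the Xlr3 sum, and that of the Xlr4 sum overlapped both. The order of the 9 levels in E14 was Xlr3a, Xlr3b, Xlr3c, Xlr5b, Xlr5a, Xlr5c, Xlr4a, Xlr4b and Xlr4c, in which Xlr5b and Xlr5a, Xlr5a and Xlr5c, Xlr5c and Xlr4a, and Xlr4b and Xlr4c did not differ beyond their counting intervals. In mutant cells only the step from the Xlr3 genes to the rest was resolved.

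**Figure D2:**
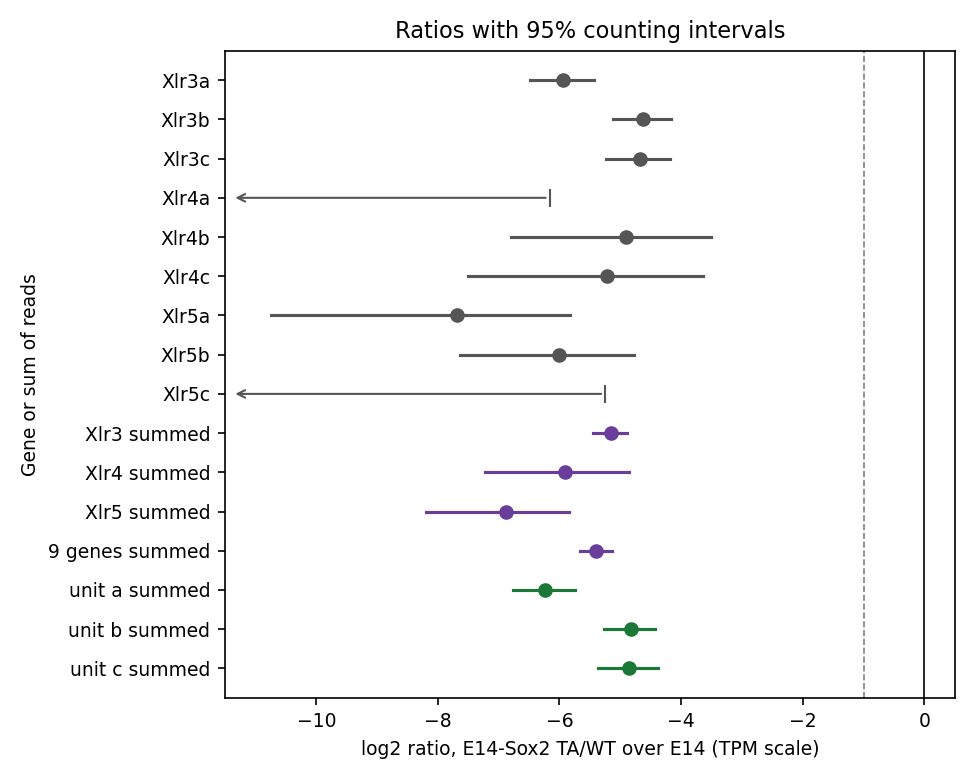
Log2 ratio of the level in mutant cells over that in E14 for each gene (grey), each subfamily and all 9 genes summed (purple) and each unit by position (green), with 95% counting intervals as lines. Arrows start at the floor of 3 reads for the copies with 0 reads in mutant cells, and the dashed line marks 2-fold lower. All values lie left of that line, from -4.63 for Xlr3b to -7.69 for Xlr5a.

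The study's methods keep genes that reach a TPM of 10 in either library and call those that change more than 2-fold. Of 9094 genes that were kept when this rule was applied here, 4.07% were more than 2-fold lower and 4.17% more than 2-fold higher in mutant cells. These shares were computed from the deposited TPM values and are not the counts that the study reports. Among the Xlr genes, 5 of 9 passed the filter, all of them through E14 alone, so they had to be lower to be counted and nothing is read from the count of 5 of 5. Xlr5a (11.9 TPM) and Xlr5b were just inside the filter, and Xlr5c (9.99 TPM) and Xlr4a (8.50 TPM) just outside it. With a TPM of at least 1, all 9 passed and all 9 were lower, where 9.95% of 13729 genes were. This too is not read further, since the genes were selected on this contrast. A level at least 16-fold lower was reached by 17 genes past the filter of 10, or 0.187%, of which 5 were Xlr genes. Ranked from the lowest ratio, Xlr5a was at place 4, Xlr5b at 8, Xlr3a at 10, Xlr3c at 13 and Xlr3b at 15. The median log2 ratio of all genes past the filter was 0.08.

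Genes like the family by ratio were taken as those past the filter between the Xlr5 and the Xlr3 sums. There were 5, of which Xlr3a and Xlr5b belong to the family. The others were Efhc2 on chromosome X, which encodes an EF-hand protein (3282 reads in E14 and 33 in mutant cells, log2 ratio -6.10), Cidea, a lipid droplet protein (1038 and 11 reads, -5.99), and Gm13139 (7215 and 202 reads, -6.33 by TPM, which departs from FPKM at that gene). By reads alone, Gm13139 fell less than the Xlr3 sum, so it is in this range by its TPM only. With 2 libraries such likeness is that of 1 ratio. Xlr5a (-7.69), Xlr3b (-4.63) and Xlr3c (-4.68), also past the filter, lay outside this range. Genes with ratios near theirs, such as Stra8 (-4.56), are therefore left out of it.

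In E14, the a copy carried about as many reads as b and c together in each subfamily, and in mutant cells Xlr3a carried fewer than that. Xlr3a held 51.6% of the Xlr3 reads in E14 (Wilson 95% interval 50.3% to 52.9%) and 30.5% in mutant cells (22.5% to 39.8%). Xlr3b went from 26.2% to 38.1% (29.4% to 47.6%) and Xlr3c from 22.2% to 31.4% (23.3% to 40.8%). The Xlr4 reads in E14 were split in nearly the same way, with 51.2% in Xlr4a, 26.6% in Xlr4b and 22.2% in Xlr4c. Xlr5 had 49.96% in Xlr5a, 36.3% in Xlr5b and 13.8% in Xlr5c, but per kilobase Xlr5a held 34.5% and Xlr5c 29.0%. In mutant cells the Xlr4 and Xlr5 sums of 7 reads each were too few for shares, and the 0 reads of Xlr4a allowed up to 35.4%. Set against all 9 genes, Xlr3 took 75.1% of the reads in E14 and 88.2% (81.2% to 92.9%) in mutant cells.

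**Figure D3:**
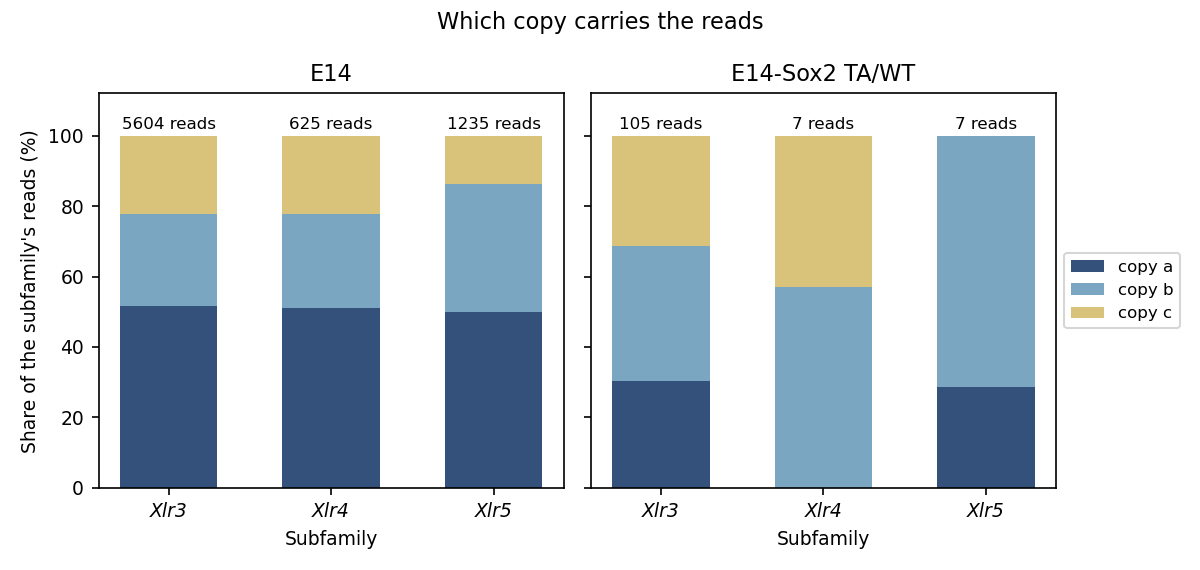
Share of the reads of each subfamily (percent) held by copy a, b and c in E14 (left) and mutant cells (right), with the reads of the subfamily above each bar. Copy a holds 49.96% to 51.6% of the reads in E14 (34.5% of Xlr5 per kilobase) and 30.5% of the Xlr3 reads in mutant cells, where the bars for Xlr4 and Xlr5 rest on 7 reads each.

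Reads were also summed by position, in a grouping made after the values were known. Unit a is mostly Xlr3a, with 2892 of its reads in E14 and 32 in mutant cells, so its values largely restate those of that copy. Unit a had 3829 reads in E14 and 34 in mutant cells, a log2 ratio of -6.24 (-6.77 to -5.75). Unit b had 2083 and 49 reads (-4.83, -5.27 to -4.42) and unit c 1552 and 36 reads (-4.85, -5.37 to -4.38). Unit a was thus lower than the other two beyond counting error, and its share of all reads of the family was 51.3% in E14 and 28.6% (21.2% to 37.3%) in mutant cells. Whether the assignment of shared reads to copies differed between the libraries was not tested.

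Genes between and around the copies were examined next. Between them, F8a, which encodes the huntingtin-associated protein Hap40, had 438 reads in E14 and 184 in mutant cells, at 5.57 and 3.49 TPM (log2 ratio -0.68, -0.93 to -0.43). This gene, between Xlr4b and Xlr4c, was thus short of 2-fold. Spin2d had 3 reads in each library. Gm14685 (73117030 to 73129269) and DXBay18 (73137223 to 73149466), which overlap the starts of Xlr5a and Xlr5b, had 52 and 57 reads in E14 and 0 in mutant cells, at least 11.6-fold and 12.7-fold lower. Reads of these genes cannot be told from those of the Xlr5 copies where they overlap, since the handling of strand is not given in the sources used here.

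On the side of Xlr4a, the nearest genes were lower as well. Pnma3 and Pnma5 belong to a family derived from a retrotransposon gag gene. Pnma5 had 1330 reads in E14 and 71 in mutant cells (log2 ratio -3.66, -4.03 to -3.32). Pnma3, under a TPM of 1 in both libraries and named after its values were seen, had 99 and 6 reads (-3.70, -5.18 to -2.53). Beyond them, the log2 ratio was -0.08 for Zfp185 and 0.21 for Nsdhl, an enzyme of cholesterol synthesis. On the side of Xlr5c it was 0.56 for the zinc finger gene Zfp275, -0.30 for Haus7, a subunit of the augmin complex of the spindle, and -0.54 for Bgn, which encodes the proteoglycan biglycan.

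Of the 10 nearest genes with a TPM of at least 1 on each side, 2 of 20 were more than 2-fold lower and 1 was more than 2-fold higher, with a median log2 ratio of -0.14. At this filter 9.95% of all genes were more than 2-fold lower, about the share of these neighbours. The lower ones were Pnma5 and Magea4, a member of the cancer-testis Mage family (164 and 6 reads, -4.32), and the higher one was Gabra3, a GABA receptor subunit (1.54). All 3 lie on the side of Xlr4a. Magea4 reached a TPM of 1 through E14 alone and Gabra3 through mutant cells alone, so each could be counted in 1 direction only. Over the whole of chromosome X, 12 of 286 genes past the TPM filter of 10 were more than 2-fold lower once the Xlr genes were left out. That share was 4.20%, beside 4.07% for the genes of all chromosomes. Another 23 of the 286 genes, or 8.04%, were more than 2-fold higher, beside 4.17% of all genes.

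**Figure D4:**
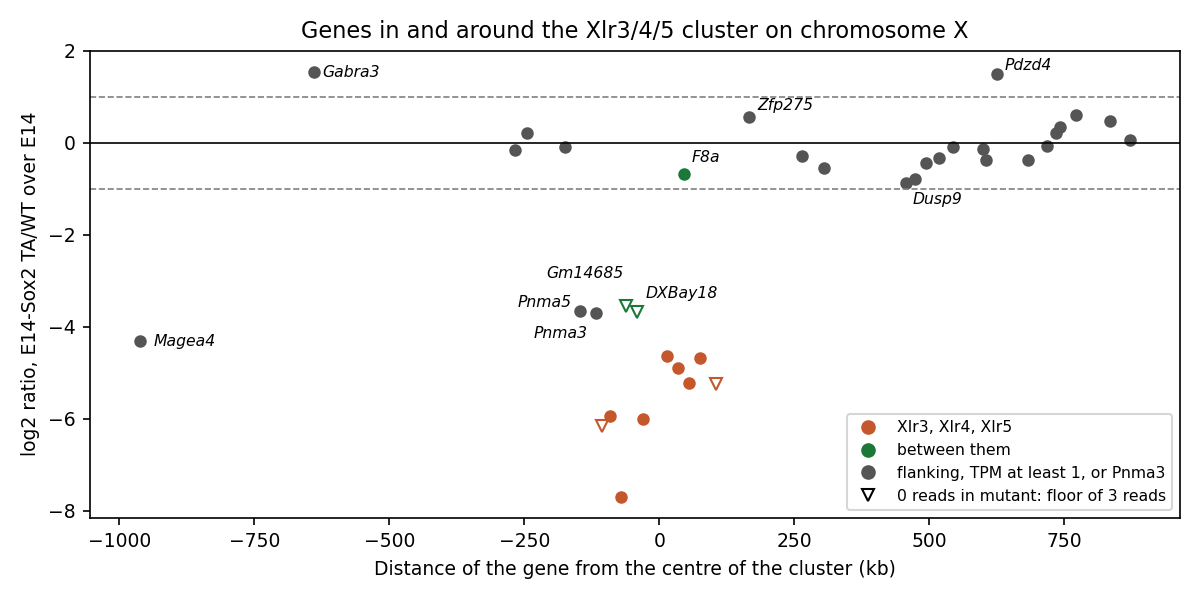
Log2 ratio (E14-Sox2 TA/WT over E14) of genes on chromosome X against their distance in kb from the centre of the Xlr cluster, for the Xlr genes (orange), genes between them (green, Spin2d with 3 reads in each library left out) and flanking genes (grey). Open triangles are values at the floor of 3 reads where mutant cells had 0 reads, and dashed lines mark 2-fold. Xlr genes lie below -4, F8a among them lies at -0.68, and Pnma5 and Pnma3 near -3.7 stand next to the cluster.

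Lists of related genes were then set beside the family. They were chosen with earlier results of these data known, so their counts are a description and no test. Of 9 other genes of the Xlr and Sycp3 superfamily, 8 were in the table and 4 had reads. Sycp3, which codes for the axis protein itself, was the only one past the filter and went from 3020 to 763 reads (85.4 to 32.2 TPM, log2 ratio -1.41). The X-linked genes 1700013H16Rik (138 and 19 reads, -2.28) and 4930502E18Rik (142 and 23 reads, -2.05) passed a TPM of at least 1. Both did so through E14 alone, so they could be counted only as lower. At that filter 9.95% of all genes were more than 2-fold lower. Xlr, which gave the family its name, had 21 and 3 reads (-3.05, -5.44 to -1.30) and was under a TPM of 1 in both libraries. Slx, Slxl1, 3830403N18Rik and 4930567H17Rik had no reads in either library. The 4 relatives with reads were lower, and nothing is read from that count. Their ratios were closer to 0 than those of the Xlr3, Xlr4 and Xlr5 sums, although the interval of Xlr overlapped those of the Xlr3 and Xlr4 sums.

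Among 18 genes of the synaptonemal complex and the meiotic chromosome axis, 11 passed the filter, of which 7 were more than 2-fold lower and none higher, with a median log2 ratio of -1.31. Of all genes past this filter 4.07% were lower, and their median was 0.08. Stra8, the retinoic acid-induced gene of meiotic entry, had the lowest ratio with 9054 and 258 reads (-4.56, -4.74 to -4.38). It was followed by the meiotic cohesin gene Smc1b (-2.79), Syce3 of the central element (-1.48), Sycp3, the cohesin gene Rec8 (-1.35), the recombinase gene Dmc1 (-1.31) and Hormad1 (-1.22). Of these, Stra8, Smc1b, Syce3 and Hormad1 passed the filter through E14 alone, so they could be counted only as lower. Stag3 (-0.87), Meioc (-0.11), Syce1 (0.02) and Syce2 (0.25) were within 2-fold. Some genes of this list were therefore level while others were far lower. Only the interval of Stra8, among those named, overlapped the intervals of Xlr genes.

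Other germline genes, listed as X-linked, were mostly scarce. The annotation places 1 of the 42, Mageb3 (6 and 0 reads), on chromosome 2. Of the 42, 32 had reads and 4 passed the filter, with 3 lower and none higher and a median of -2.31, again beside 4.07% of all genes. Rhox5, a homeobox gene of the reproductive tract, had 6498 and 441 reads (-3.30), the mRNA export factor gene Nxf7 had 807 and 82 reads (-2.72), and Taf7l, a testis paralog of a TFIID subunit, had 1018 and 184 reads (-1.89). Nxf7 and Taf7l passed the filter through E14 alone, so they could be counted only as lower. Nr0b1, also an ESC gene, had a log2 ratio of 0.11. At a TPM of at least 1, 10 of 14 were more than 2-fold lower, beside 9.95% of all genes. The 10 include Fthl17a, Fthl17b, Fthl17c, Fthl17d and Fthl17f, with 39 to 81 reads each in E14. They belong to the same gene family, so the count rests partly on related copies. Of the 10, Rhox1, Fthl17a, Fthl17b, Fthl17d and Fthl17f reached a TPM of 1 through E14 alone, so these could be counted only as lower.

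Autosomal germline genes known to be silenced by promoter methylation had a median of -1.01 over the 10 of 22 that passed the filter, with 5 lower and none higher, where 4.07% of all genes were lower. The lower ones were Tuba3a (-2.31), the piRNA pathway genes Mov10l1 (-2.04) and Mael (-1.996), Rnf17 (-1.43) and Hormad1, which is in the meiotic list too. Tuba3a, Mov10l1 and Hormad1 passed the filter through E14 alone, so they could be counted only as lower. Ddx4, the germ cell RNA helicase (-0.30), Zfp42, which is among the ESC markers too (-0.23), Tex14 (-0.26) and Tdrkh (-0.80) were within 2-fold.

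Of 16 enzymes and partners of DNA methylation and demethylation, 15 passed the filter, 3 of them more than 2-fold higher and none lower, with a median of 0.46, where 4.17% of all genes were higher. The higher ones were Atrx, a chromatin remodeler encoded on the X chromosome (1.19), the de novo methyltransferase gene Dnmt3b (1.16, 67.5 and 150 TPM) and the dioxygenase gene Tet1 (1.01, 0.99 to 1.04). Tet1 lay at the threshold, and 2 genes were counted with TMM, with size factors, with FPKM or by the counting interval. Trim28 (0.46), Hells (0.36), Uhrf1 (0.42) and Dnmt3l (-0.39) were within 2-fold. Methylation itself was not measured in these libraries, and its part in the levels of the Xlr genes was not tested.

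**Figure D5:**
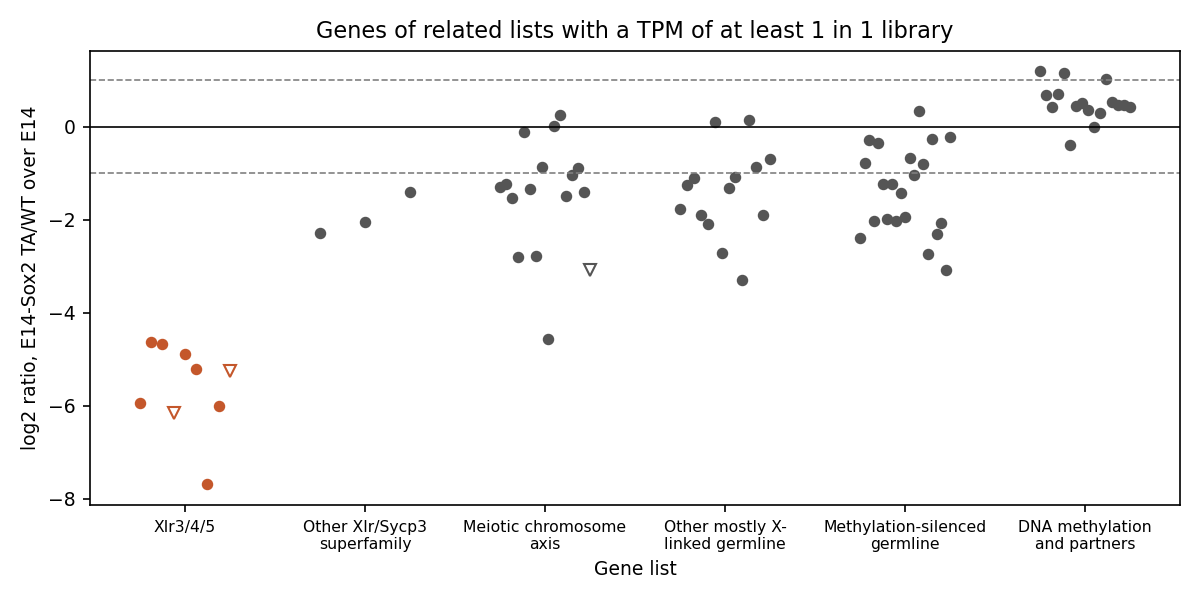
Log2 ratio (E14-Sox2 TA/WT over E14) of the Xlr genes (orange) and of genes of 5 related lists (grey) that reached a TPM of 1 in either library, 1 point per gene. Open triangles are values at the floor of 3 reads where mutant cells had 0 reads, and dashed lines mark 2-fold. All Xlr points lie below -4.6, where among the listed genes Stra8 comes nearest with -4.56, while the genes of DNA methylation lie between -0.39 and 1.19.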

How the data were processed

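RNA-seq of polyadenylated RNA from 1 E14 and 1 E14-Sox2 TA/WT culture was used. The authors deposited a gene table for mm10 with whole-number read counts, and the FPKM and TPM values in the same table were also deposited by the authors, scaled for length and library. The submitters' processing notes name bcl2fastq 2.20.0, Trimmomatic, HISAT2 2.1.0 and StringTie 2.1.3b. The treatment of strand and of reads matching several genes is not given in the sources used here. TPM was a constant multiple of FPKM at all 9 Xlr genes, with a departure under 1%.

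From these values, TPM ratios were taken without a pseudocount. Exact Clopper-Pearson 95% intervals of the read counts (SciPy 1.17.1) were placed on the TPM scale. For a gene with reads in both libraries, its own difference between TPM ratio and read ratio was used. Summed reads and genes with 0 reads were placed by a log2 shift of 0.58, the median over genes with at least 100 reads in each library. The intervals and 2-fold calls were tested on simulated read counts scaled by library totals. That test did not use the TPM shift and left out genes with few reads. For a gene with 0 reads the fold was computed against 3 reads, or 0.0673 CPM in E14-Sox2 TA/WT cells. Groups came from the labelled genotype. Because each genotype had 1 library, no test was made. Members and lists were chosen with earlier results of these data known. Genes named were all 9 members, genes of each list past the filter and 2-fold (up to 6 by ratio) with up to 4 others by level, genes between the members, the nearest 3 on each side and neighbours past 2-fold. Transcripts came from GENCODE M21 and promoter windows from RefSeq. Alternatives were edgeR 4.0.16 TMM and DESeq2 1.42.0 size factors on the counts, CPM, FPKM, centring, pseudocounts, filters, thresholds and the number of neighbours.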

Additional observations from a re-analysis of the deposited data

How the results depend on the processing

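The log2 ratios of the 9 Xlr genes and of their sums stayed negative under the scalings, centring and pseudocounts tried, and under FPKM, which gave no ratio for Xlr4a and Xlr5c at 0 reads. The highest was -2.06 for Xlr4c with a pseudocount of 1 TPM. That pseudocount moved the Xlr3 sum to -4.77, the Xlr4 sum to -3.81 and the Xlr5 sum to -4.82, because the E14-Sox2 TA/WT levels lie near or under it. Leaving out Xlr3a moved the Xlr3 sum to -4.64. The count of Xlr genes more than 2-fold lower (5) became 9 with a TPM of at least 1 or with no filter beyond 1 read and 3 with a TPM of at least 20, by construction. With 5 neighbours on each side 1 was lower, and with 20 on each side 5 were lower and 3 higher, all 5 on the side of Xlr4a. Of the 5, Magea4, Gm6812 and 1700020N15Rik reached a TPM of 1 through E14 alone. As shifts of the whole library relative to TPM, FPKM and CPM came to -0.14, TMM to -0.05 and size factors to -0.02. Single copies with few reads moved otherwise, Xlr4c from -5.21 to -5.10 with CPM and -4.98 with size factors. Divided by length, Xlr5a held 34.5% and Xlr5c 29.0% of Xlr5 in E14. No library could be left out and no paired analysis was possible because each genotype had 1 library. The reads in E14-Sox2 TA/WT cells, 0 to 5 at each Xlr4 and Xlr5 copy, limit any order among copies there.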
